A study of Mus musculus with 4 samples.

Results

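The aminoacyl-tRNA synthetases are the enzymes that join each amino acid to its tRNA. Their genes were examined here in cultured mouse tooth germs. Members were the rows of the deposited table whose symbol was a 1-letter amino acid code followed by "ars", with or without a final 1 or 2, together with Farsa, Farsb, Eprs and Tarsl2. The rule found 38 of 15887 genes. Of these, 17 had a symbol of the 1-letter form with a final 2 and were counted as mitochondrial. The other 21 were counted as cytosolic, among them Tarsl2, although its symbol also ends in 2. Methionyl-tRNA synthetase is listed as Mars1 in the table.

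The study asked whether low temperature protects developing organs from cyclophosphamide (CPA), an alkylating drug that damages DNA. Mandibular tooth germs of ICR mouse embryos were kept in organ culture, and total RNA was measured by CAGE (cap analysis of gene expression), which counts RNAs by their capped 5′ ends. The 4 groups were 25°C_CPA, 25°C_DMSO, 37°C_CPA and 37°C_DMSO, and DMSO is the solvent control. Treatment lasted 3 days. The sources conflict on the rest. The series design gives 2.5 mM CPA and the treatment protocol 0.25 mM, the stage is given as E14.5 and as E13.5, and a protocol text repeated for every sample adds 4 days in fresh medium. The paper's own CAGE methods describe E14.5 germs, 2.5 mM CPA and 3 days at either temperature, and name no further days. Each condition had 1 library, made from pooled tooth germs, so no difference below has a replicate check, no p-value is given, and a condition cannot be told apart from its library.

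Totals ranged from 15101186 to 16449264 counts. Levels are CPM (counts divided by the scaled library total) after TMM scaling, a correction of the totals for a shift in composition. CAGE reads 1 tag per 5′ end, so levels of different genes can be set side by side without a correction for transcript length. A fold is the ratio of 2 levels, and its 95% interval is exact for the split of the 2 counts and covers counting error only. A gene was measured in a comparison with at least 50 counts in its higher library, called at 2-fold or more, and also counted at 1.5-fold. All 38 members were measured in all 4 comparisons, with 83 to 2640 counts per library. No member shared its counts with another gene. In bulk tissue, fewer cells of a type and less RNA per cell cannot be told apart. Markers of dental epithelium and of dental mesenchyme were looked up. All 7 of each were in the table, and none was at 0 in any library. The listed muscle, bone, macrophage and erythroid markers in the table were not at 0 either, so this does not set dental tissue apart.

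Cytosolic synthetases charge tRNAs for the ribosomes of the cytosol, and a separate, nuclear-encoded set is imported into mitochondria to charge the tRNAs used for the few proteins of the respiratory chain that mitochondria make themselves. Gars and Kars each encode both the cytosolic and the mitochondrial enzyme. No separate mitochondrial glutaminyl enzyme exists, and there Ears2 charges the tRNA with glutamate, which an amidotransferase then converts. Eprs carries the glutamyl and prolyl activities in 1 protein, and Farsa and Farsb are the alpha and beta subunits of the phenylalanyl enzyme. Several cytosolic enzymes sit together in the multi-synthetase complex. When amino acids run short or the endoplasmic reticulum is stressed, the transcription factor ATF4 raises many cytosolic synthetase genes through C/EBP-ATF response elements (CARE).

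Promoter sequences, from 250 bases before to 50 bases after the annotated start, were taken from RefSeq (GRCm38.p6), where 28 of the 38 members matched by symbol (14 cytosolic and 14 mitochondrial). Those not matched included Hars2, Vars, Lars, Pars2, Rars, Wars, Cars, Hars and Nars. The core of the CARE, searched as TGATGNAA on both strands, was found in 5 of the 14 cytosolic promoters (Aars, Gars, Iars, Tars and Yars) and in 0 of the 14 mitochondrial ones, beside 3.97% of all 32851 promoters. The windows with this match are shown because ATF4 is the best known regulator of the family. Each is written 5′ to 3′ on the strand of the gene, with the matched core in capitals, from chr8:111033694-111033773 (+) for Aars, chr6:55037935-55038000 (+) for Gars, chr15:11399659-11399709 (-) for Tars, chr13:49682101-49682144 (+) for Iars and chr4:129189870-129189913 (+) for Yars.
Aars: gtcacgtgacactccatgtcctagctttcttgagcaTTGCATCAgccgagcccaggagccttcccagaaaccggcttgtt
Gars: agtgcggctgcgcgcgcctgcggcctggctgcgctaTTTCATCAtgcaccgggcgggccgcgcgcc
Tars: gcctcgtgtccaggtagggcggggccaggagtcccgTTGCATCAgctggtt
Iars: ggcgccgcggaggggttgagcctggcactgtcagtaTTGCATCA
Yars: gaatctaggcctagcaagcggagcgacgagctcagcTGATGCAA

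The core began at position -112 in Aars, -30 in Gars, -15 in Tars, 8 in Iars and 4 in Yars, counting the annotated start as 1, and Aars held another at position 10. The motif of NRF1 (nuclear respiratory factor 1, a regulator of genes for mitochondrial proteins), searched on both strands as GCGCA and GCGC with any 1 base between them, was found in Farsb, Iars2, Kars, Mars2 and Tars, beside 4.6% of all promoters. The E-box CACGTG, read on both strands alike, was found in Aars, Ears2, Farsb, Iars and Tars, beside 7.15% of all promoters. The 3 motifs were searched separately. A match is a description of these letters and not a measured site.

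The synthetase genes were expressed in all 4 libraries. The cytosolic genes summed to 1382 CPM in 25°C_CPA, 1358 in 25°C_DMSO, 1335 in 37°C_CPA and 1427 in 37°C_DMSO. The mitochondrial genes summed to 438, 419, 358 and 324 CPM in the same order. The mitochondrial share of all synthetase counts was 24.1% (95% interval 23.6 to 24.6, exact binomial) in 25°C_CPA, 23.6% (23.1 to 24.1) in 25°C_DMSO, 21.2% (20.7 to 21.7) in 37°C_CPA and 18.5% (18.1 to 19.0) in 37°C_DMSO. The share was thus lowest in 37°C_DMSO, and the intervals of the 25 °C libraries overlapped each other but neither 37 °C interval. This share does not depend on how the libraries were scaled. Iars2 held 1882 of the 6566 mitochondrial counts in 25°C_CPA and 1765 of 6115 in 25°C_DMSO. It held 1201 of 5602 in 37°C_CPA and 1196 of 5488 in 37°C_DMSO. Whether the intervals stay apart without Iars2 was not tested, so the share alone does not show a shift of the whole mitochondrial set.

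Sars, the seryl enzyme, had the highest level of the family in 37°C_DMSO, at 155.9 CPM, and Aars2, the mitochondrial alanyl enzyme, the lowest, at 5.91 CPM. For the same amino acid, the cytosolic gene had the higher level in 16, 16, 17 and 17 of 18 pairs in 25°C_CPA, 25°C_DMSO, 37°C_CPA and 37°C_DMSO, with a median ratio of 3.47, 3.40, 3.68 and 4.35. Iars2, the mitochondrial isoleucyl enzyme, was the exception in every library, at 125.5, 120.8, 76.8 and 70.6 CPM, against 39.4, 38.3, 39.3 and 40.5 CPM of the cytosolic Iars. At 25 °C Fars2 also lay above Farsa, with 29.3 against 22.8 CPM in 25°C_CPA and 26.4 against 24.3 CPM in 25°C_DMSO.

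**Figure D1:**
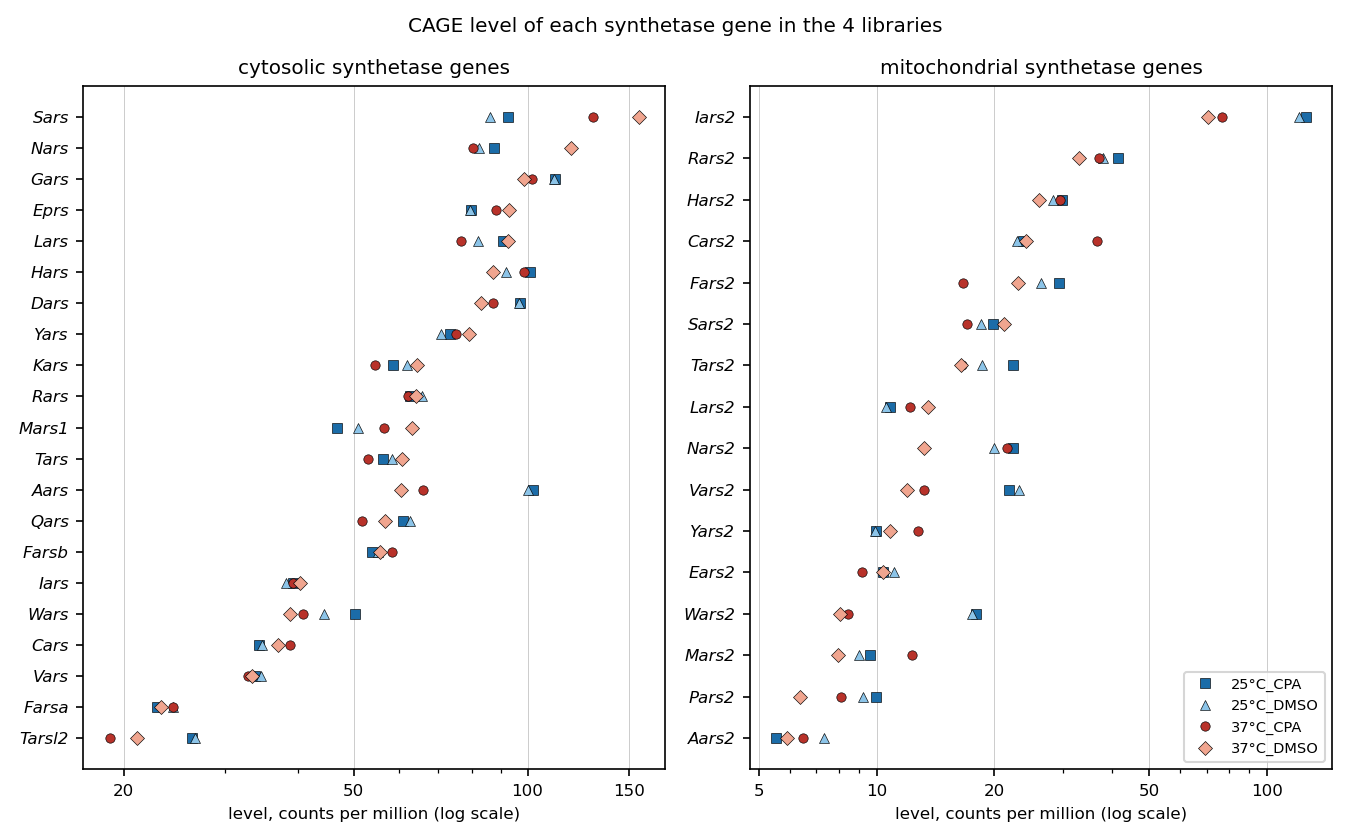
Level of each cytosolic (left) and mitochondrial (right) synthetase gene in CPM on a log axis, with 1 point per library and genes ordered by 37°C_DMSO (1 mitochondrial gene is not drawn). Iars2 stood above every other mitochondrial gene, and the 25 °C points of Wars2, Vars2, Iars2 and Aars lay to the right of both 37 °C points, while those of Sars lay to the left.

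Low temperature alone was read from 25°C_DMSO against 37°C_DMSO. Among members, the highest folds were those of the mitochondrial genes Wars2, Vars2 and Iars2, followed by the cytosolic Aars. The cytosolic genes were spread around 0. The median log2 fold was 0.20 over the 17 mitochondrial genes, -0.01 over the 21 cytosolic genes and -0.01 over all 13491 measured genes. At 2-fold, 1 of 38 members (Wars2) was higher and 0 were lower, beside 6.45% of all measured genes higher and 11.5% lower. At 1.5-fold, Wars2, Vars2, Iars2, Nars2 and Aars were higher and Sars was lower, which is 13.2% and 2.63% of the members beside 17.3% and 21.4% of all measured genes. Of the 17 mitochondrial genes alone, 4 were higher at 1.5-fold (23.5%), and of the 21 cytosolic genes 1 was (4.76%). Both stand beside the same 17.3% of all measured genes.

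Wars2 (chr3:98944991-99043109 on mm9), the mitochondrial tryptophanyl enzyme, had 269 counts in 25°C_CPA and 257 in 25°C_DMSO, against 132 in 37°C_CPA and 136 in 37°C_DMSO. These are 17.9 and 17.6 CPM at 25 °C, against 8.44 and 8.03 CPM at 37 °C. It was 2.19-fold higher in 25°C_DMSO than in 37°C_DMSO (interval 1.77 to 2.72). Both 25 °C libraries stood above both 37 °C libraries, and at each temperature the CPA and DMSO libraries were close to each other.

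Vars2 (chr17:35792579-35804537), the mitochondrial valyl enzyme, was at 21.9 CPM in 25°C_CPA and 23.1 in 25°C_DMSO, against 13.2 in 37°C_CPA and 11.99 in 37°C_DMSO. It was 1.93-fold higher in 25°C_DMSO (1.62 to 2.31). Iars2 (chr1:187108605-187153275) was 1.71-fold higher (1.59 to 1.84), with the levels given above. Nars2 (chr7:104100015-104213271), the mitochondrial asparaginyl enzyme, had 22.4, 20.0, 21.6 and 13.2 CPM in 25°C_CPA, 25°C_DMSO, 37°C_CPA and 37°C_DMSO. It was 1.51-fold higher in 25°C_DMSO than in 37°C_DMSO (1.27 to 1.81), but here 37°C_DMSO alone was low, and 37°C_CPA lay among the 25 °C libraries. The lowest mitochondrial log2 folds were -0.36 for Lars2, -0.19 for Sars2 and -0.12 for Yars2, the leucyl, seryl and tyrosyl enzymes, none of them called.

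The 80 bases before the annotated starts of Wars2, chr3:99141010-99141089 (+), and Vars2, chr17:35667593-35667672 (-), on GRCm38.p6 are shown because these genes had the 2 highest folds. Neither promoter held an exact match to any of the 3 motifs searched, and no letters are in capitals. Near matches were not searched, so this does not show that similar stretches are absent.
Wars2: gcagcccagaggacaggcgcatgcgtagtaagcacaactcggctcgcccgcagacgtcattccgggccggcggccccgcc
Vars2: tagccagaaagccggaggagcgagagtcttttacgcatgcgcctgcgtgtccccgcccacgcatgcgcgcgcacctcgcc

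Among the cytosolic genes, Aars (chr8:113557044-113581564), the alanyl enzyme, was the highest fold. It was at 102.4 CPM in 25°C_CPA and 100.2 in 25°C_DMSO, against 65.8 in 37°C_CPA and 60.3 in 37°C_DMSO. The fold was 1.66 in 25°C_DMSO over 37°C_DMSO (1.53 to 1.80). Tarsl2, a second threonyl enzyme encoded by its own gene, followed with a log2 fold of 0.34 and Dars, the aspartyl enzyme, with 0.22. Sars (chr3:108227783-108248127) had 92.5 and 86.2 CPM in 25°C_CPA and 25°C_DMSO, against 129.7 and 155.9 CPM in 37°C_CPA and 37°C_DMSO. It was 1.81-fold lower in 25°C_DMSO (1.69 to 1.94), and both 25 °C libraries lay below both 37 °C libraries. Nars, the asparaginyl enzyme, had a log2 fold of -0.53 and Mars1 of -0.31. Nars was at 118.9 CPM in 37°C_DMSO and between 80.5 and 87.4 CPM in the other 3 libraries, so that 37°C_DMSO alone stood apart.

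Of the 5 members whose promoters held the CARE core, Aars was higher at 1.5-fold in both temperature comparisons, where 17.3% (DMSO) and 16.3% (CPA) of all measured genes were. The log2 folds in 25°C_DMSO over 37°C_DMSO were 0.73 for Aars, 0.17 for Gars, -0.06 for Tars, -0.08 for Iars and -0.16 for Yars, and in 25°C_CPA over 37°C_CPA they were 0.64, 0.13, 0.09, 0.00 and -0.03 in the same order.

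Low temperature with the drug was read from 25°C_CPA against 37°C_CPA, 2 libraries that the previous comparison did not use. The median log2 fold was 0.19 over mitochondrial, 0.04 over cytosolic and 0.00 over all 13343 measured genes. Wars2 was again the member past 2-fold (2.13-fold, 1.72 to 2.64), so 1 of 38 was higher and 0 were lower, beside 6.32% and 10.9% of all measured genes. At 1.5-fold, Aars, Fars2, Iars2, Vars2 and Wars2 were higher and Cars2 was lower, beside 16.3% and 20.3% of all measured genes. The first 5 are 4 of 17 mitochondrial genes (23.5%) and 1 of 21 cytosolic genes (4.76%). Fars2 was 1.76-fold higher (1.51 to 2.06), Vars2 1.65-fold (1.38 to 1.98), Iars2 1.63-fold (1.52 to 1.76) and Aars 1.56-fold (1.44 to 1.69). Cars2 was 1.55-fold lower (1.35 to 1.77). Sars, at a log2 fold of -0.49, had the lowest cytosolic value but was not called, followed by Mars1 at -0.27 and Cars, the cysteinyl enzyme, at -0.18. Tarsl2 (0.47) and Wars (0.30) followed Aars at the top. Mars2 (-0.36) and Yars2 (-0.36) lay above Cars2 at the bottom of the mitochondrial set.

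Across the 38 members, the 2 temperature comparisons had the same sign in 29 (76.3%), beside 81.8% of the 13151 genes measured in both, and Pearson's r across genes was 0.72, beside 0.88 over all genes. The members Aars, Iars2, Vars2 and Wars2 passed 1.5-fold in the same direction in both. These are 4 of 38, a smaller share than the 3352 of 13151 genes that did so. The 2 comparisons share no library. Genes are not independent replicates, and these values describe the 4 libraries only.

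**Figure D2:**
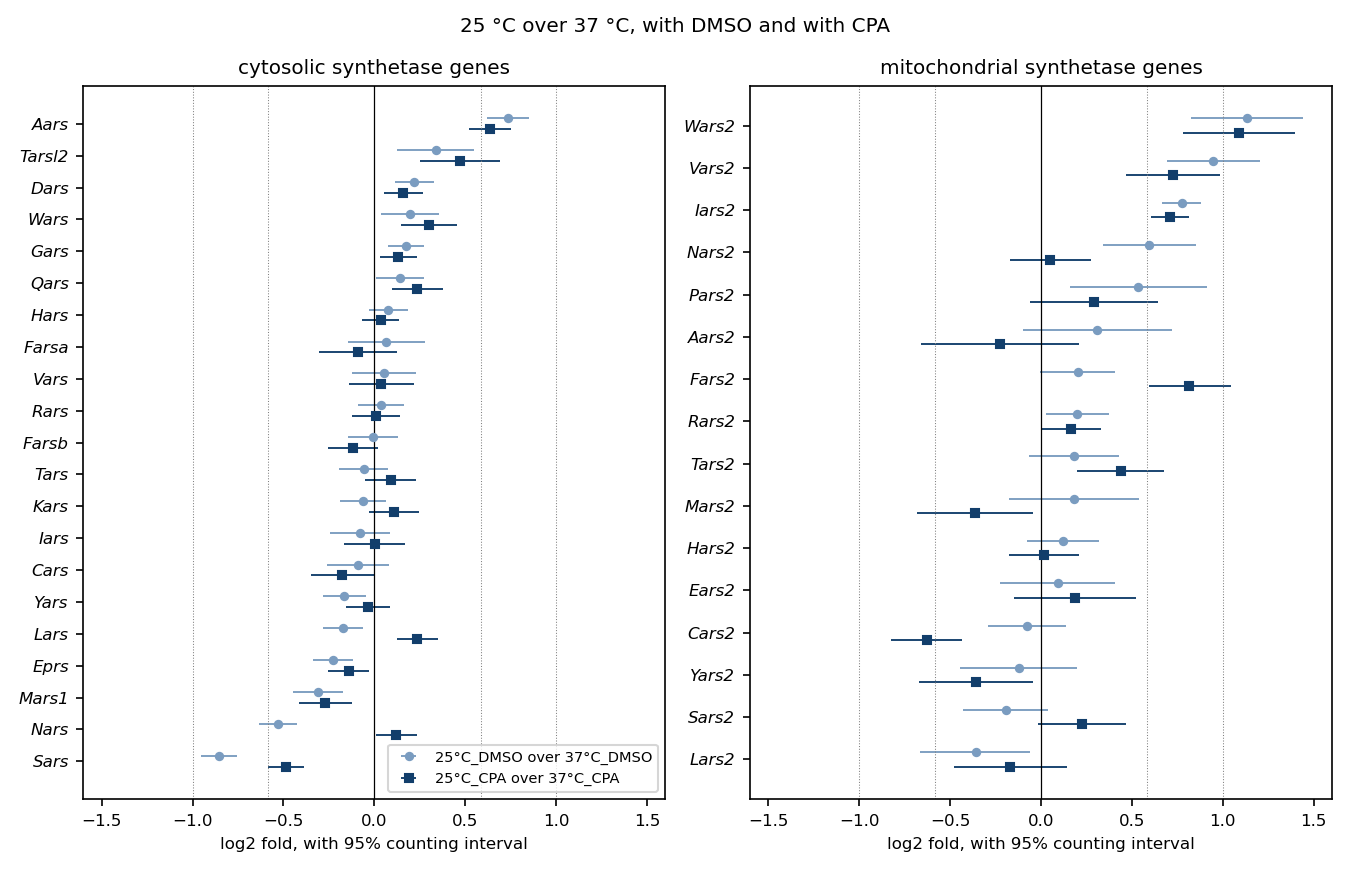
Log2 fold of each synthetase gene, except 1 mitochondrial gene, at 25 °C over 37 °C, with DMSO (light circles) and with CPA (dark squares). Bars are 95% counting intervals and dotted lines mark 1.5-fold and 2-fold. Wars2 alone lay past 2-fold, in both comparisons, and its intervals crossed that line. Sars, Nars, Lars, Cars2, Nars2 and Fars2 are the members whose intervals in the 2 comparisons did not overlap.

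The drug at 37 °C was read from 37°C_CPA against 37°C_DMSO. At 1.5-fold, the share of members higher was close to that of all genes. No member passed 2-fold in either direction (0 of 38, beside 2.4% of all 13307 measured genes higher and 1.59% lower). At 1.5-fold, Nars2, Mars2 and Cars2 were higher and 0 were lower, which is 7.89% of the members higher, beside 6.59% of all measured genes higher and 6.61% lower. The median log2 fold was 0.14 over mitochondrial, -0.04 over cytosolic and -0.02 over all measured genes. Above 0 lay 13 of 17 mitochondrial and 8 of 21 cytosolic genes, beside 6298 of all 13307 measured genes. The sum of the mitochondrial genes was 1.11-fold that in 37°C_DMSO (1.06 to 1.15), and that of the cytosolic genes was 0.935-fold (0.918 to 0.953). Single genes weigh in these sums. In 37°C_CPA against 37°C_DMSO, Nars was at 80.5 against 118.9 CPM and Sars at 129.7 against 155.9 CPM. Cars2 was at 36.6 against 24.1 CPM. The sums without these genes were not tested, so they do not show a shift of either whole set.

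Cars2 (chr8:11514021-11550771), the mitochondrial cysteinyl enzyme, had 572 counts in 37°C_CPA and 408 in 37°C_DMSO, with 355 in 25°C_CPA and 334 in 25°C_DMSO. This is 36.6 CPM in 37°C_CPA, against 24.1 CPM in 37°C_DMSO, a fold of 1.52 (1.34 to 1.73). The other 3 libraries were between 22.9 and 24.1 CPM, so 37°C_CPA alone was high. Mars2 (chr1:55294021-55296902), the mitochondrial methionyl enzyme, was also highest in 37°C_CPA, with 12.3 CPM there and 7.97 to 9.61 CPM in the others. Its fold was 1.55 (1.24 to 1.94). Nars2, with 338 counts in 37°C_CPA against 224 in 37°C_DMSO, had the highest fold at 1.63 (1.38 to 1.94).

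At the other end, Fars2 (chr13:36209280-36629461), the mitochondrial phenylalanyl enzyme, was at 16.6 CPM in 37°C_CPA, against 23.0 CPM in 37°C_DMSO, a log2 fold of -0.47 that did not reach 1.5-fold. With 29.3 and 26.4 CPM in 25°C_CPA and 25°C_DMSO, it was lowest in 37°C_CPA. Sars2 (-0.31) and Ears2 (-0.18) followed. The lowest cytosolic log2 folds were those of Nars (-0.56, 80.5 against 118.9 CPM), Lars (-0.27, 76.8 against 92.5 CPM) and Sars (-0.27), and the highest were those of Hars (0.18), Aars (0.13) and Wars (0.07), the histidyl, alanyl and tryptophanyl enzymes. None of these was called. Kars, which serves both compartments, was at -0.25 and Gars at 0.05.

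The drug at 25 °C was read from 25°C_CPA against 25°C_DMSO. No member was called at 2-fold (0 of 38, beside 0.142% of all 12704 measured genes higher and 0.118% lower) or at 1.5-fold (0 of 38, beside 0.827% higher and 0.937% lower). The median log2 fold was 0.06 over mitochondrial, 0.01 over cytosolic and 0.00 over all measured genes. The highest mitochondrial values were 0.26 for Tars2, 0.17 for Nars2 and 0.15 for Fars2, and the lowest -0.40 for Aars2, -0.09 for Ears2 and -0.08 for Vars2. Aars2 had 83 counts in 25°C_CPA and 107 in 25°C_DMSO, and its interval for the fold (0.561 to 1.02) included 1. The cytosolic values ran from -0.12 for Mars1, -0.09 for Farsa and -0.08 for Kars to 0.14 for Hars, 0.14 for Lars and 0.18 for Wars. Gars was at 0.01.

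**Figure D3:**
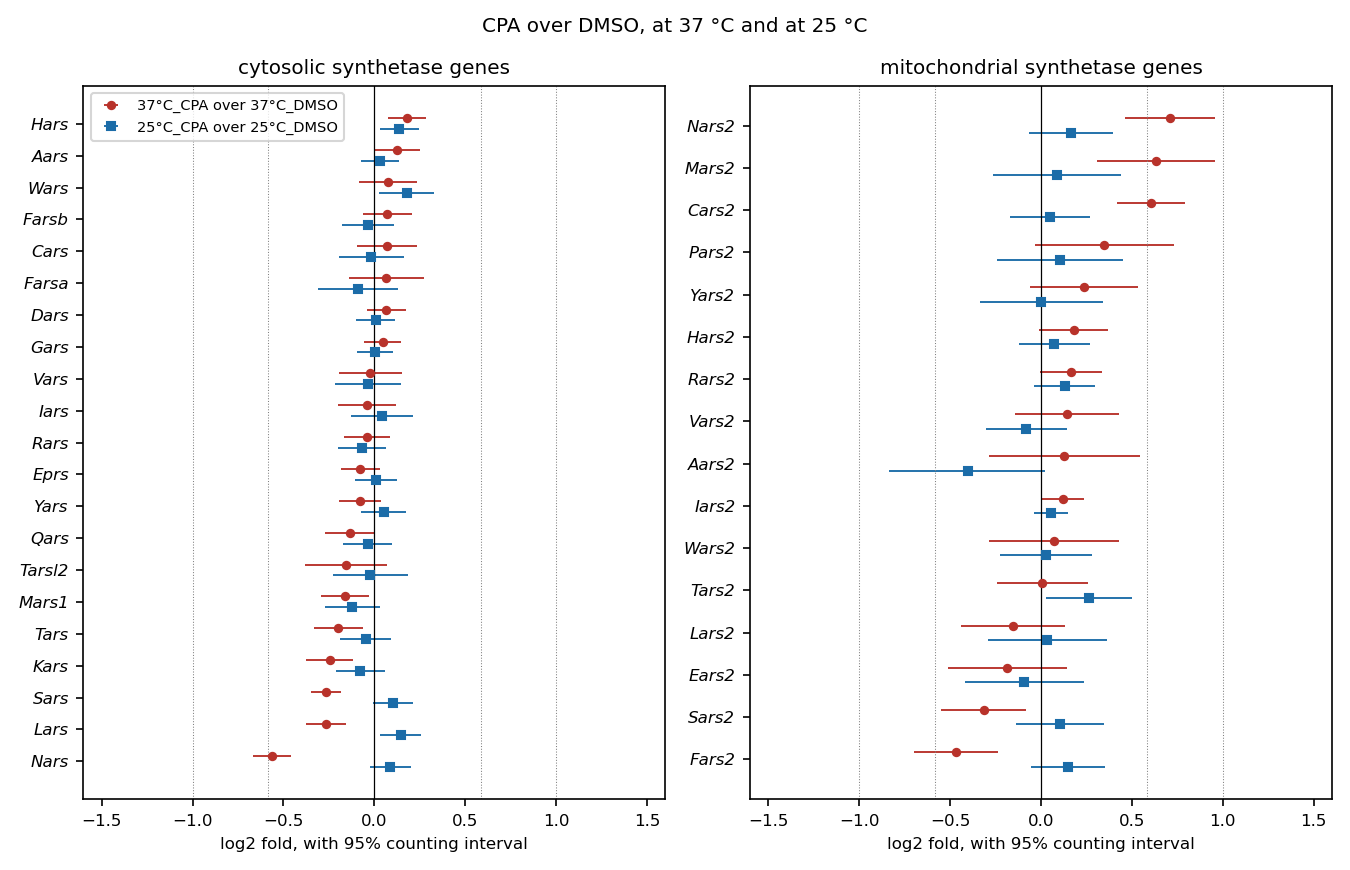
Log2 fold of each synthetase gene, except 1 mitochondrial gene, in CPA over DMSO, at 37 °C (red circles) and at 25 °C (blue squares), with 95% counting intervals. Dotted lines mark 1.5-fold and 2-fold. Nars2, Mars2 and Cars2 were past 1.5-fold at 37 °C, and no member was at 25 °C.

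The drug's log2 fold at 37 °C minus that at 25 °C was 0.55 for Cars2 (interval 0.27 to 0.83), 0.54 for Nars2 (0.21 to 0.88) and 0.54 for Mars2 (0.08 to 1.01). It was -0.65 for Nars (-0.80 to -0.50), -0.61 for Fars2 (-0.91 to -0.31), -0.42 for Sars2 (-0.75 to -0.09), -0.41 for Lars (-0.57 to -0.26) and -0.37 for Sars (-0.51 to -0.23). For the other 30 members the counting interval of this difference included 0. Because each condition is 1 library, this difference was not tested beyond counting error. The drug comparisons at the 2 temperatures share no library, and their signs were the same in 24 of 38 members (63.2%), beside 50.3% of 12328 genes. Pearson's r across genes was 0.07 over members and 0.01 over all genes.

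The cytosolic gene was set against the mitochondrial gene for the same amino acid in 18 pairs, with Farsa and Farsb each against Fars2 and Eprs against both Ears2 and Pars2, so these pairs share genes. In 25°C_DMSO over 37°C_DMSO the cytosolic gene had the lower log2 fold in 16 of 18 pairs, and in 7 of them (Ile, Met, Asn, Pro, Ser, Val and Trp) the counting interval of the difference lay below 0. Alanine was opposite, with Aars above Aars2. In 25°C_CPA over 37°C_CPA the cytosolic gene was lower in 11 of 18 pairs. There the interval lay below 0 for Ile, Pro, Ser, Thr, Val, Trp and both subunits for Phe, and above 0 for Ala, Cys and Leu. The pairs for Ile, Pro, Ser, Val and Trp were thus below 0 in both, and that for Ala above 0 in both. For the drug, the cytosolic gene was lower in 12 of 18 pairs at 37 °C and in 11 of 18 at 25 °C. The interval lay below 0 for Cys, Met, Asn, Pro and Tyr and above 0 for both Phe subunits at 37 °C, and below 0 for Thr and above 0 for Ala at 25 °C.

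**Figure D4:**
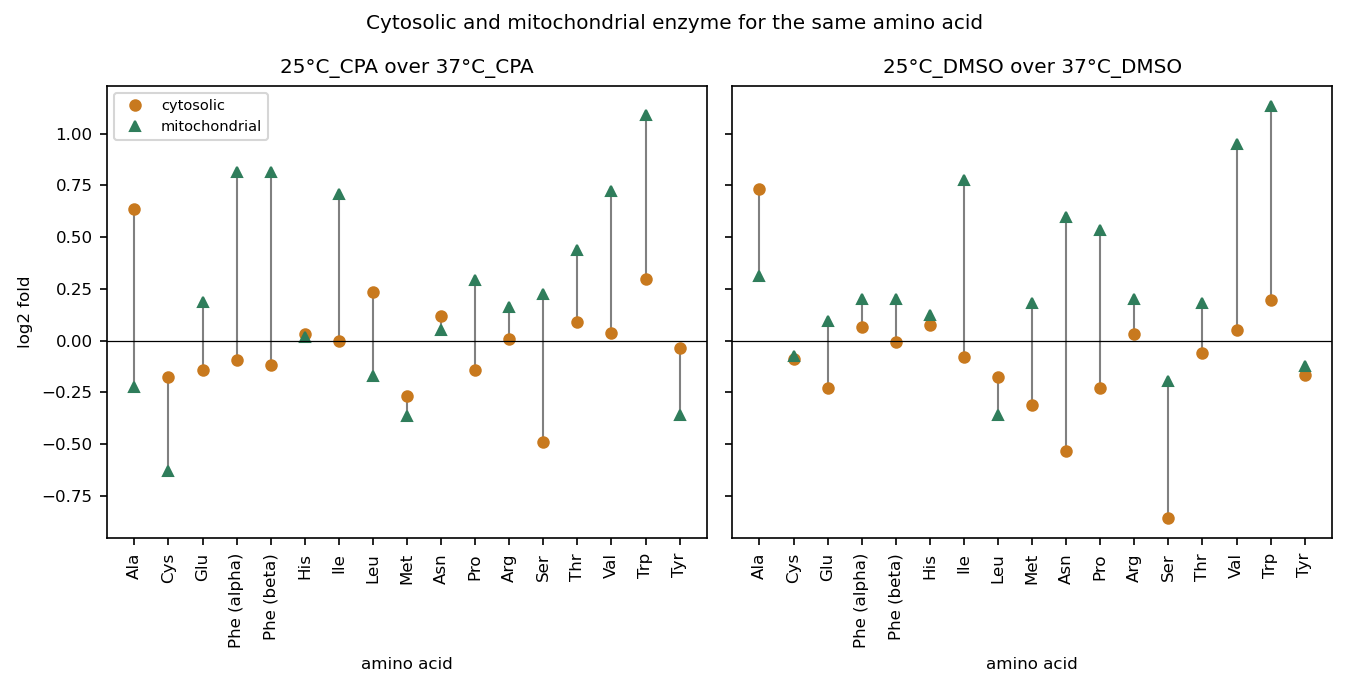
Log2 fold of the cytosolic (circles) and mitochondrial (triangles) gene for each amino acid, in 25°C_CPA over 37°C_CPA (left) and 25°C_DMSO over 37°C_DMSO (right). Grey lines join the genes of a pair, and 17 of the 18 pairs are drawn. Over all 18, the mitochondrial gene lay above in 11 pairs in 25°C_CPA over 37°C_CPA and in 16 in 25°C_DMSO over 37°C_DMSO.

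At 1.5-fold, 0 of the 8 enzymes of the multi-synthetase complex (Eprs, Iars, Lars, Mars1, Qars, Rars, Kars and Dars) were called in any comparison. For the drug, 6.59% of all measured genes were higher and 6.61% lower at 37 °C, and 0.827% and 0.937% at 25 °C. Among the 13 free cytosolic genes, Aars was higher and Sars lower in 25°C_DMSO over 37°C_DMSO, where 17.3% of all measured genes were higher and 21.4% lower, and Aars was higher in 25°C_CPA over 37°C_CPA, where 16.3% were higher and 20.3% lower. The median log2 fold of complex and free genes was -0.07 and 0.05 in 25°C_DMSO over 37°C_DMSO, 0.06 and 0.04 in 25°C_CPA over 37°C_CPA, -0.11 and 0.05 for the drug at 37 °C, and -0.02 and 0.01 for the drug at 25 °C. The scaffold proteins of the complex (Aimp1, Aimp2 and Eef1e1) and Xpot, which exports tRNA from the nucleus, had 0 calls of 4 at either fold in all 4 comparisons. Their highest log2 fold was 0.46, for Eef1e1 in 25°C_DMSO over 37°C_DMSO. Of 6 cytosolic elongation factors, Eef1g, a subunit of the complex that recharges eEF1A with GTP, was 1.58-fold lower in 25°C_DMSO (1.52 to 1.64) and 1.51-fold lower in 25°C_CPA (1.45 to 1.57) than at 37 °C, and the other 5 were not called.

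Mitochondrial translation factors, a list that includes genes for tRNA modification, were measured for 18 of 20 names. In 25°C_DMSO over 37°C_DMSO, 6 were higher and 1 lower at 1.5-fold, with a median log2 fold of 0.32, where 17.3% of all measured genes were higher and 21.4% lower. In 25°C_CPA over 37°C_CPA, 5 were higher and 1 lower, with a median of 0.25, where 16.3% of all measured genes were higher and 20.3% lower. Trnt1, which adds the CCA end to tRNAs, was 2.11-fold higher in 25°C_DMSO (1.95 to 2.28) and 2.03-fold higher in 25°C_CPA (1.88 to 2.20). Qrsl1, a subunit of the amidotransferase that makes glutaminyl-tRNA in mitochondria, had a log2 fold of 0.93 in 25°C_DMSO over 37°C_DMSO, and Trmu, which thiolates mitochondrial tRNAs, had 0.81 in 25°C_CPA over 37°C_CPA. Tufm, the mitochondrial elongation factor that carries charged tRNA to the ribosome, went the other way. It was 2.57-fold lower in 25°C_DMSO (2.31 to 2.88) and 2.43-fold lower in 25°C_CPA (2.15 to 2.75). For the drug, 0 of 18 were called at either fold at 37 °C and at 25 °C. At 1.5-fold, 6.59% of all measured genes were higher and 6.61% lower at 37 °C, and 0.827% and 0.937% at 25 °C.

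Targets of the integrated stress response outside the synthetases, the other genes that ATF4 and its partners act on, lay mostly below 0 at 25 °C over 37 °C. Of 32 measured, 25 had a log2 fold below 0 in 25°C_DMSO over 37°C_DMSO, beside 6815 of all 13491 measured genes. At 2-fold, 1 was higher and 9 were lower in this comparison (median log2 fold -0.49), beside 6.45% and 11.5% of all measured genes. In 25°C_CPA over 37°C_CPA, 1 was higher and 8 were lower (median -0.39), beside 6.32% and 10.9% of all measured genes. The lower ones included Nupr1, a stress-induced chromatin protein, at 8.85-fold lower in 25°C_DMSO (6.87 to 11.6), and Cebpb, a transcription factor, at 6.89-fold lower (5.78 to 8.27). Slc7a5, a transporter of large neutral amino acids, was 2.24-fold higher (1.99 to 2.53) and Asns, asparagine synthetase, 1.57-fold higher (1.40 to 1.76) in 25°C_DMSO. In 25°C_CPA over 37°C_CPA, Slc7a5 was 2.21-fold higher (1.96 to 2.50) and Psph, the last enzyme of serine synthesis, 1.67-fold higher (1.46 to 1.92). With the drug at 37 °C, Sesn2, a sestrin also known as a p53 target, was 3.36-fold higher (2.95 to 3.83), Nupr1 was 2.66-fold lower (2.29 to 3.10), and the median over 32 genes was -0.18. At 25 °C, 0 of 30 passed 1.5-fold, beside 0.827% of all measured genes higher and 0.937% lower.

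**Figure D5:**
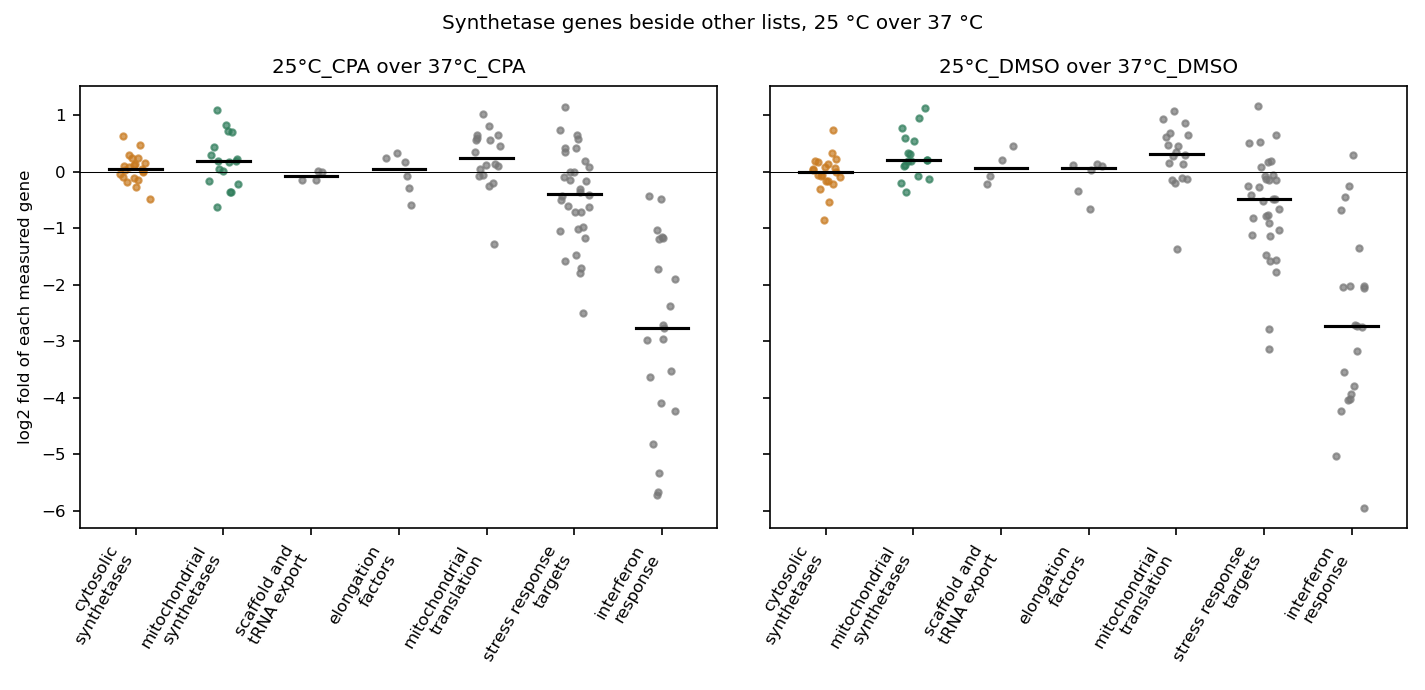
Log2 fold of every measured gene of each list, in 25°C_CPA over 37°C_CPA (left) and 25°C_DMSO over 37°C_DMSO (right), with black bars at the medians. Cytosolic and mitochondrial synthetase genes lay between -0.86 and 1.13, while the medians of the interferon response lay at -2.77 (left) and -2.73 (right). Ifit3 had 0 counts in 25°C_DMSO and is drawn with 3 counts in place of 0.

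Wars, the cytosolic tryptophanyl enzyme, is strongly induced by interferon in human cells. Here it was at 50.3 CPM in 25°C_CPA and 44.5 in 25°C_DMSO, against 40.9 in 37°C_CPA and 38.9 in 37°C_DMSO, and its log2 fold was 0.20 in 25°C_DMSO over 37°C_DMSO and 0.30 in 25°C_CPA over 37°C_CPA. Most other interferon response genes took the opposite direction. Of 21 measured, 0 were higher and 17 were lower at 2-fold in 25°C_DMSO over 37°C_DMSO, beside 6.45% and 11.5% of all measured genes. In 25°C_CPA over 37°C_CPA, 0 were higher and 19 were lower, beside 6.32% and 10.9% of all measured genes. Only 10 of the list were measured in 25°C_CPA over 25°C_DMSO. Those not measured there had under 50 counts in both 25 °C libraries. Any of them measured in a temperature comparison passed the count minimum only through a 37 °C library, where they were high. For these genes the filter itself favoured a lower value at 25 °C. Isg15, a ubiquitin-like interferon product, had 26 counts in 25°C_DMSO, against 1873 in 37°C_DMSO. With the drug at 37 °C, 3 of 21 were higher at 2-fold and 0 were lower, beside 2.4% and 1.59% of all measured genes. Rsad2 was first at 2.53-fold (2.02 to 3.18), while Wars had a log2 fold of 0.07.

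Cell type markers also moved with temperature. The 8 macrophage and leukocyte markers summed to 195 and 189 CPM in 25°C_CPA and 25°C_DMSO, against 626 and 835 CPM in 37°C_CPA and 37°C_DMSO, and the 7 bone markers to 88.7 and 75.8 CPM, against 265 and 567 CPM. Mesenchyme markers summed to 1363 and 1346 CPM at 25 °C, against 2099 and 3543 CPM at 37 °C, epithelium markers to 1265 and 1255 CPM, against 1536 and 1466 CPM, and skeletal muscle markers to 49.3 and 39.3 CPM, against 31.3 and 82.6 CPM. The 4 of 8 erythroid markers in the table summed to 97.4 and 123 CPM, against 15.7 and 9.33 CPM. Col1a1, the main collagen of bone and dentin, carried the mesenchyme sum, with 8699 and 8264 counts in 25°C_CPA and 25°C_DMSO, against 24034 and 49104 in 37°C_CPA and 37°C_DMSO. The median log2 fold of the 7 mesenchyme markers was 0.59 in 25°C_CPA over 37°C_CPA and 0.05 in 25°C_DMSO over 37°C_DMSO, and Lhx8, a transcription factor of dental mesenchyme, was 2.94-fold and 2.71-fold higher. In 25°C_CPA over 37°C_CPA the bone sum followed Spp1 (osteopontin), with 116 counts in 25°C_CPA against 3041 in 37°C_CPA, while Ifitm5 and Ibsp were 5.41-fold and 2.55-fold higher, and the median log2 fold of the 5 bone markers measured was -0.04. In 25°C_DMSO over 37°C_DMSO that median was -2.46 over 6 measured. Lyz2 carried the macrophage and leukocyte sum, with 614 and 550 counts in 25°C_CPA and 25°C_DMSO, against 5854 and 8119 in 37°C_CPA and 37°C_DMSO. The median log2 fold of these 8 markers was -1.51 in 25°C_DMSO over 37°C_DMSO and -0.48 in 25°C_CPA over 37°C_CPA. In the latter, all 8 lay below 0, with Csf1r at -0.08 and Aif1 at -0.14. Of 5 muscle markers measured there, 3 were above 0 (Myog 4.32-fold higher) and 2 below (Acta1 3.52-fold lower). No listed marker in the table was at 0 in any library. Their part in the synthetase values was not tested.

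Of the 38 members, 13 have an annotated start of a gene on the opposite strand within 500 bases (GENCODE vM1, mm9), and for 10 of them that neighbour is in the table. The only pair within the family is Hars and Hars2, whose starts lie 197 bases apart. Their log2 folds were 0.08 and 0.12 in 25°C_DMSO over 37°C_DMSO, 0.03 and 0.02 in 25°C_CPA over 37°C_CPA, 0.18 and 0.18 for the drug at 37 °C, and 0.14 and 0.07 for the drug at 25 °C. Fars2 starts 54 bases from Lyrm4, a factor of iron-sulfur cluster assembly. Lyrm4 had 434 and 428 counts in 25°C_CPA and 25°C_DMSO, against 214 and 158 in 37°C_CPA and 37°C_DMSO. For the drug at 37 °C, Lyrm4 had a log2 fold of 0.55 and Fars2 of -0.47, and in 25°C_DMSO over 37°C_DMSO Lyrm4 had 1.65 and Fars2 0.20. In 25°C_CPA over 37°C_CPA the values were 1.08 for Lyrm4 and 0.82 for Fars2. Sars2 starts 171 bases from Mrps12, a protein of the mitochondrial ribosome, and their log2 folds for the drug at 37 °C were -0.31 and 0.21. All 38 members lie on the strand that the table gives.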

How the data were processed

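The authors aligned CAGE tags to mm9 and, with SAMtools in the MOIRAI pipeline, turned them into start sites of transcription. BWA 0.5.9, mm9 and GRCh38 are listed in the submitters' processing notes, with no role. In the sources used here, the annotation and the step from tags to gene totals are not given. The deposited values are whole-number counts per gene, not normalized.

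From the deposited counts, TMM factors (0.980, 0.967, 1.02 and 1.03 in 25°C_CPA, 25°C_DMSO, 37°C_CPA and 37°C_DMSO) came from edgeR 4.0.16 (R 4.3.3) with all 4 libraries together, and folds with exact intervals from Python 3.11.15 with SciPy 1.17.1. Intervals of a difference between 2 log2 folds used the normal approximation to the counting error. Molecules carried no identifiers, so intervals cover counting error only. A count of 0 was set to a floor of 3 counts, 0.177 to 0.205 CPM. The table had 0 rows without a gene name. On simulated counts with no spread between libraries, the intervals held the true fold for 95.4% to 95.6% of measured genes.

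Members and lists were chosen with earlier results of these data known. Named were the 3 highest and 3 lowest folds of each compartment in each comparison, every member called at 2-fold, Gars, Kars and Wars, and of other lists up to 2 highest and 2 lowest. Of the members, 1 is not reported here by name, but enters the counts, sums and medians. Other members are named for their promoters, neighbours or pairs. Alternatives to TMM were DESeq2 1.42.0 size factors, Gapdh (the study's PCR reference), the total count and raw counts. Other alternatives were another count minimum (200 or no limit), adding 10 counts, taking genes with identical counts once, and calls whose interval lies beyond the fold.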

Additional observations from a re-analysis of the deposited data

Results flagged for a closer look

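Nars and Lars, both cytosolic, had opposite signs for the same contrast under another condition, with the counting interval of each fold on its own side of 1. Nars had a log2 fold of -0.53 in 25°C_DMSO over 37°C_DMSO and 0.12 in 25°C_CPA over 37°C_CPA, a difference of -0.65. Lars had -0.17 and 0.24 in the same comparisons, and for the drug -0.27 at 37 °C and 0.14 at 25 °C, a difference of -0.41 either way, since the 4 libraries enter both. The interval for Nars in 25°C_CPA over 37°C_CPA was 1.00 to 1.17, so it only just lay above 1. It was 0.960 to 1.12 with scaling to the total count and 0.963 to 1.13 with no scaling. With scaling to Gapdh, Lars was above 1 in both temperature comparisons, 1.10 to 1.28 with DMSO. The drug folds of Lars stayed on opposite sides of 1 under every scaling tried. With 1 library per condition the difference was not tested.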

How the results depend on the processing

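No paired analysis was possible because each condition has 1 library, and for the same reason no replicate could be left out. DESeq2 size factors, another count minimum (200 or no limit), adding 10 counts, taking genes with identical counts once, and leaving out Gars and Kars (chosen after seeing the data) moved no count of members by over 1.5 times. Scaling to the total count moved 1 count, to 2 members (Nars and Sars) 1.5-fold lower in 25°C_DMSO over 37°C_DMSO, against 1. No scaling gave there 0 higher and 1 lower (Sars) at 2-fold and 2 higher and 2 lower at 1.5-fold, and for the drug at 37 °C 1 higher (Nars2) and 1 lower (Nars) at 1.5-fold. Scaling to Gapdh gave 5 higher at 2-fold and 16 higher and 0 lower at 1.5-fold in 25°C_DMSO over 37°C_DMSO, 7 higher at 2-fold and 27 higher and 0 lower at 1.5-fold in 25°C_CPA over 37°C_CPA, and a log2 fold of 0.034 for Cars2 there, against -0.63. Requiring the interval to lie beyond the fold left 0 at 2-fold in both temperature comparisons, 3 higher (Fars2, Iars2 and Wars2) and 0 lower at 1.5-fold in 25°C_CPA over 37°C_CPA, and 0 higher for the drug at 37 °C.

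Gapdh had 117, 138, 193 and 215 counts in 25°C_CPA, 25°C_DMSO, 37°C_CPA and 37°C_DMSO, and scaling to it shifted the median of all genes by 0.43 in 25°C_DMSO over 37°C_DMSO, 0.66 in 25°C_CPA over 37°C_CPA, 0.04 for the drug at 37 °C and 0.28 at 25 °C. No scaling shifted it by -0.21, -0.06, -0.11 and 0.04. Of all genes called at 2-fold, the higher ones were 35.9%, 36.7%, 60.2% and 54.5% in that order, with Gapdh 72.2%, 85.5%, 66.0% and 89.7%, and with no scaling 20.7%, 31.2%, 43.2% and 55.9%. The median of the mitochondrial genes in 25°C_DMSO over 37°C_DMSO was thus -0.01 with no scaling and 0.63 with Gapdh, and that of the cytosolic genes -0.22 and 0.42. The cytosolic minus the mitochondrial median (-0.21, -0.15, -0.18 and -0.05) is the same under any scaling, and was -0.23, -0.16, -0.18 and -0.05 with Tarsl2 counted as mitochondrial, a choice made after seeing the data. Depth limits the lowest mitochondrial genes, such as Aars2 with 83 to 107 counts.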
